A study of Mus musculus with 12 samples.

Results

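Adipokines are hormones and other proteins that fat tissue releases into the blood. The genes described, listed by symbol with earlier results of these data known, are Lep, Adipoq, Retn, Rarres2, Cfd, Rbp4, Nampt, Apln and Sfrp5, 9 in all. Of these, 8 were measured by a probe set that the platform annotation gives to that gene alone, out of 18194 genes measured in this way, and Cfd (adipsin, a complement protease) had no named probe set and was not analysed here. Rarres2, Nampt and Sfrp5 each had more than 1 probe set, and the brightest over the 12 arrays gave the values below, with the others as a check.

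Total RNA was hybridised to 12 Affymetrix arrays, 2 (a and b) for each of 6 groups. Wild-type C57BL/6 mice ate a regular diet (WT_RD) or a high fat diet with 55% fat (WT_HFD). Mice labelled Smad3-/-, which lack a carrier of TGF-beta signals into the nucleus and came from a stock mixed between C57BL/6 and NIH Black Swiss, ate the regular diet (KO_RD) or the same fat diet (KO_HFD), so genotype and strain cannot be told apart. In a second experiment, obese mice of the strain labelled C57J/B6, made so by diet, were injected into the abdominal cavity with control IgG (clone 13C4, DIO_IgG) or with a TGF-beta antibody (clone 1D11, DIO_aTGFb), 3 times a week for 8 weeks. The Smad3 probe sets give no check of the genotype, so knockout below means an array labelled Smad3-/-. The labels name neither age nor tissue. Whether arrays a and b hold different mice is also unstated, so the p-values speak to the spread between arrays, which may be technical.

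Leptin, the product of Lep, tells the brain how much fat is stored, and its message in white fat cells follows their size and number. Adiponectin, made almost only by fat cells, increases insulin sensitivity and tends to fall in obesity. Resistin (Retn) is a fat-cell product in mice, chemerin (Rarres2) guides immune cells and shapes fat-cell formation, retinol binding protein (Rbp4) carries vitamin A, Nampt makes a precursor of NAD, apelin (Apln) acts on vessels and heart, and Sfrp5 binds Wnt ligands outside the cell.

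Values are log2 expression after RMA, and a difference of 1 is a doubling of the measured signal. Array medians ran from 6.32 to 6.39 in the diet and genotype experiment and from 6.03 to 6.04 in the antibody experiment, so levels were compared only within an experiment. Genes near these medians may be background, which compresses folds. Fat-cell RNA was abundant on every array: the summed level of 14 measured white and general adipocyte genes lay between 15.87 and 16.76. It was lowest on the KO_RD arrays, at 15.87 and 15.89, while WT_RD, WT_HFD and KO_HFD ran from 16.54 to 16.69. Markers of other tissues differed far more. Epididymis and testis genes (11 measured) summed to 9.35 and 9.41 in WT_RD, 13.53 and 13.64 in WT_HFD, 15.86 and 15.93 in KO_RD, and 12.42 and 12.55 in KO_HFD. Skeletal muscle genes (12) summed to 10.10 to 12.02 in the first 3 of these groups and to 14.71 and 14.82 in KO_HFD. With the antibody they summed to 14.96 and 14.99, against 10.71 and 10.82 with IgG. Smooth muscle genes (7) stood at 14.63 and 14.64 in WT_RD and at 11.86 to 12.61 elsewhere in that experiment. In bulk RNA, fewer fat cells and less RNA per fat cell cannot be told apart, and the part that RNA of other tissues had in the differences below was not tested.

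**Figure D1:**
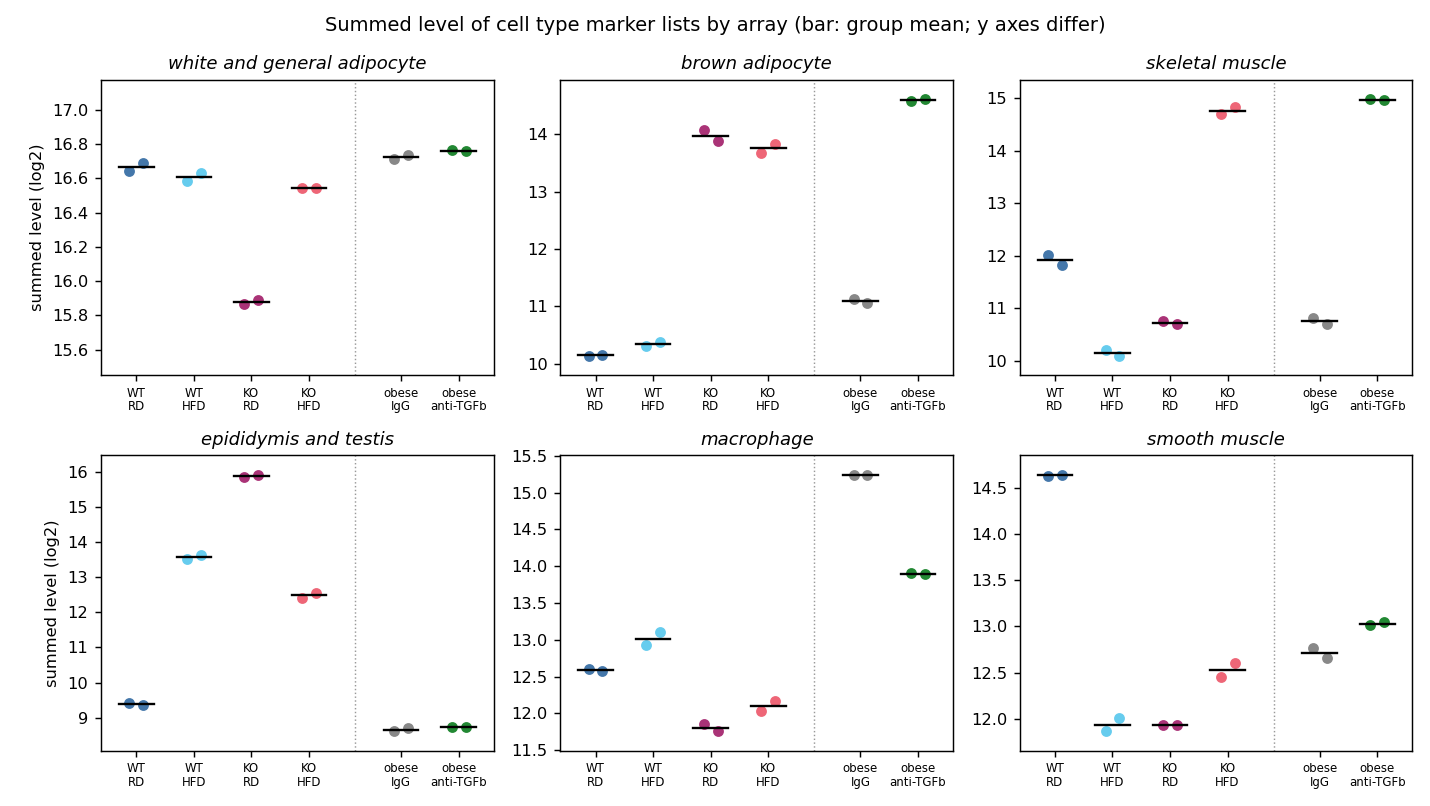
Summed level of 6 marker lists (log2 of the summed linear values, y axis) on each array, by group (x axis), with the group mean as a bar and a dotted line between the experiments. White adipocyte genes dip only in KO_RD within the diet and genotype experiment, epididymis genes peak there at 15.86 and 15.93, and muscle genes are highest in KO_HFD and with the antibody.

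On the regular diet most adipokines were lower in the knockout. Of the 8 measured, 7 fell and 0 rose (limma, adjusted p under 0.05), where 24.0% of all genes were called in either direction, and the median log2 difference was -1.08 against 0.04 over all genes. Lep fell 14.4-fold, Rarres2 6.41-fold, Rbp4 2.55-fold, Retn 2.41-fold and Adipoq 1.85-fold. The white adipocyte list moved in the same comparison, 13 of 14 genes lower and 0 higher with a median of -1.17, and so did the brown adipocyte list in the other direction, 9 of 11 higher and 0 lower. Epididymis genes were higher in 10 of 11, and macrophage genes lower in 7 of 12 with 1 higher.

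On the high fat diet the same contrast split. Lep, Sfrp5 and Rarres2 were lower in the knockout by 5.06-fold, 2.35-fold and 1.56-fold, Retn was 1.46-fold higher, and Adipoq, Rbp4, Nampt and Apln did not pass. This is 4 of 8 called, where 10.8% of all genes were, with a median of 0.12 against -0.01. White adipocyte genes had 1 higher and 3 lower of 14 here (median -0.03), all 12 skeletal muscle genes were higher and 9 of 11 brown adipocyte genes were higher. Macrophage genes were lower in 6 of 12 and epididymis genes in 6 of 11, with 0 higher in either list.

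The fat diet changed 4 of the 8 adipokines in wild type, in both directions, and raised 6 in the knockout. In wild type Lep and Sfrp5 rose, by 1.42-fold and 1.45-fold, and Retn and Rbp4 fell, by 1.57-fold and 1.36-fold, so that 4 of 8 were called against 10.8% of all genes (median -0.06 against 0.02). Leaving out WT_RD replicate b left 2 of the 8 called. In the knockout 6 of 8 rose and 0 fell, where 17.3% of all genes were called (median 0.92 against -0.00). Rarres2 rose 4.81-fold, Lep 4.05-fold, Retn 2.24-fold, Rbp4 1.99-fold and Adipoq 1.80-fold. White adipocyte genes rose in 11 of 14 there with 0 lower, all 12 muscle genes rose, and epididymis genes fell in 8 of 11.

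The diet difference itself differed between genotypes for 7 of the 8 adipokines, 6 more positive and 1 more negative in the knockout. Over all genes 18.8% were called (median 1.25 for the adipokines against -0.02). White adipocyte genes had 12 more positive and 1 more negative of 14 in the same test (median 1.04). These comparisons share arrays: the KO_RD values enter the genotype, diet and interaction results alike, and the WT_RD values do too.

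In obese mice the TGF-beta antibody came with lower Lep and Sfrp5, 3.69-fold and 2.25-fold, and slightly lower Apln and Rarres2, while Retn, Nampt and Adipoq were higher by 1.27-fold to 1.38-fold. Rbp4 did not pass. This makes 7 of 8 called, 3 higher and 4 lower, against 24.3% of all genes (median -0.22 against -0.00). Leaving out DIO_IgG replicate b, DIO_aTGFb replicate a or DIO_aTGFb replicate b left 4 called each time. White adipocyte genes were split, 4 higher and 3 lower of 14 (median 0.14). Brown adipocyte genes were higher in all 11 (median log2 difference 2.36), Ucp1 by 6.93 and Cidea by 5.29 log2 units. Macrophage genes were lower in 11 of 12 and skeletal muscle genes higher in all 12.

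**Figure D2:**
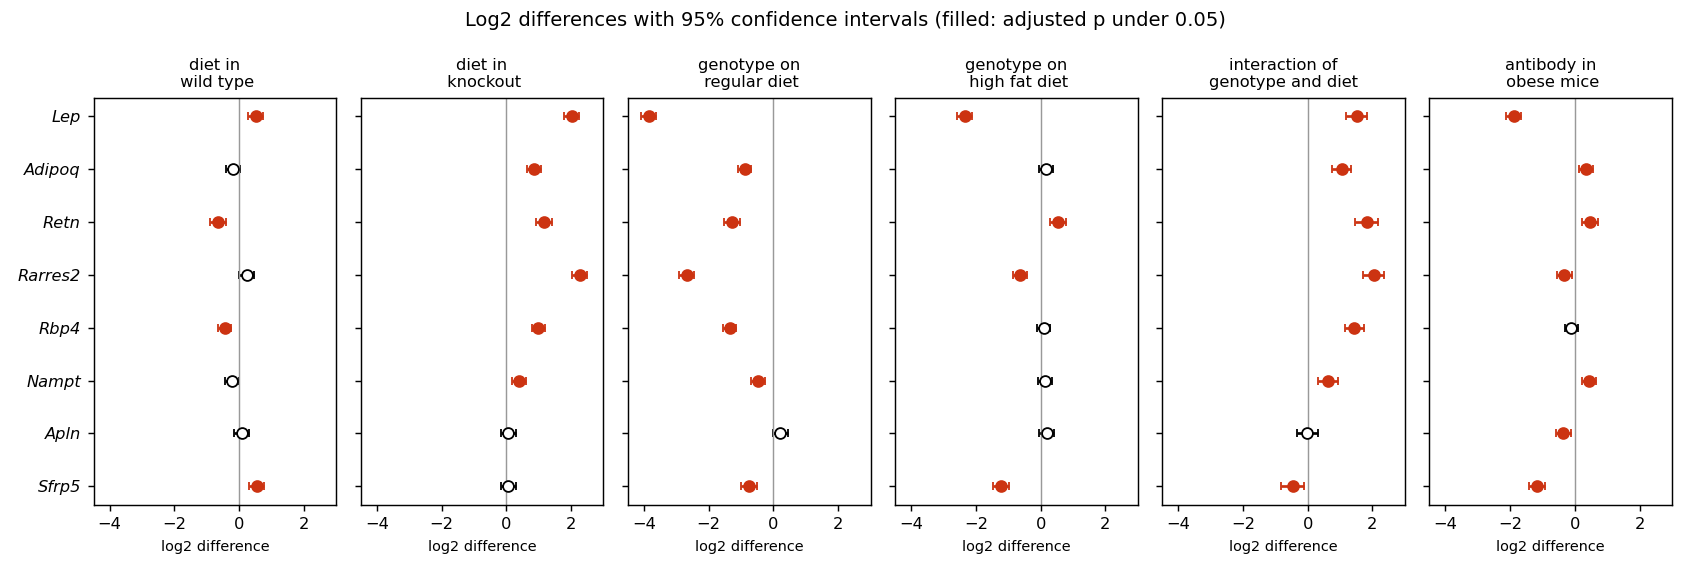
Log2 difference (x axis) of each adipokine gene (y axis) in the 6 comparisons, with its 95% confidence interval from limma; filled points have an adjusted p under 0.05. Lep lies left of 0 in both genotype comparisons and with the antibody, and 7 of the 8 genes lie left of 0 for genotype on the regular diet.

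Lep had the widest range of the 8. Its values were 11.01 and 11.24 in WT_RD, 11.53 and 11.74 in WT_HFD, 7.39 and 7.17 in KO_RD, and 9.30 and 9.30 in KO_HFD. The groups did not overlap, and their order was WT_HFD, WT_RD, KO_HFD, KO_RD. The knockout on the fat diet thus stayed 1.83 below lean wild type. KO_RD came within about 1 log2 unit of the array median, so its fold may be compressed. The log2 difference between genotypes was -3.85 ± 0.11 (SE, n = 2 arrays a side, limma adjusted p = 2.03e-20) on the regular diet and -2.34 ± 0.11 (limma adjusted p = 4.93e-15) on the fat diet. Fat feeding raised Lep by 2.02 ± 0.11 in the knockout (limma adjusted p = 7.26e-14) and by 0.51 ± 0.11 in wild type (limma adjusted p = 0.00226). The rise in wild type lost its call without WT_RD replicate a (0.40, limma adjusted p = 0.0958) or WT_HFD replicate b (0.41, limma adjusted p = 0.0563). The interaction was 1.51 ± 0.16 (limma adjusted p = 2.71e-08).

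In the obese mice Lep stood at 12.43 and 12.67 with IgG and at 10.62 and 10.71 with the antibody. All antibody arrays were below all IgG arrays, with a difference of -1.89 ± 0.11 (limma adjusted p = 2.83e-13). Cidec, a lipid droplet protein of fat cells, differed there by only 0.06 ± 0.10 and did not pass (limma adjusted p = 0.724). The white adipocyte genes called there went both ways: Mest differed by -1.56, Npr3 by -0.74 and Dgat2 by -0.63, and Nnat by 0.87, Pparg by 0.49, Slc2a4 by 0.48 and Pnpla2 by 0.45.

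The 250 bases before the start of Lep in RefSeq (chr6:29059971-29060220, GRCm38.p6, plus strand) are shown because they hold the short stretch through which C/EBP factors are known to drive this gene in fat cells. Capitals mark every match on either strand to any of 4 motifs. These were the TATA box letters TATAAA, the C/EBP letters TTNNGCAA, the nuclear receptor letters AGGTCA and the short Smad element CAGAC.
Lep: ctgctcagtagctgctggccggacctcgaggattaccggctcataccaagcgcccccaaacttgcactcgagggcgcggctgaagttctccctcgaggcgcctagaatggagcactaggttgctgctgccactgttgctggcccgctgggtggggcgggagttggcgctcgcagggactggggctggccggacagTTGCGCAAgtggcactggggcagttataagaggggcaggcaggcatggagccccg
The only match was to the C/EBP letters, starting at position -55 from the gene start, and 9.57% of the 32841 promoter windows of this length held such a match. TATAAA was found in 12.4%, AGGTCA in 14.0% and CAGAC in 42.2% of them. A match describes letters only, and no binding was measured.

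**Figure D3:**
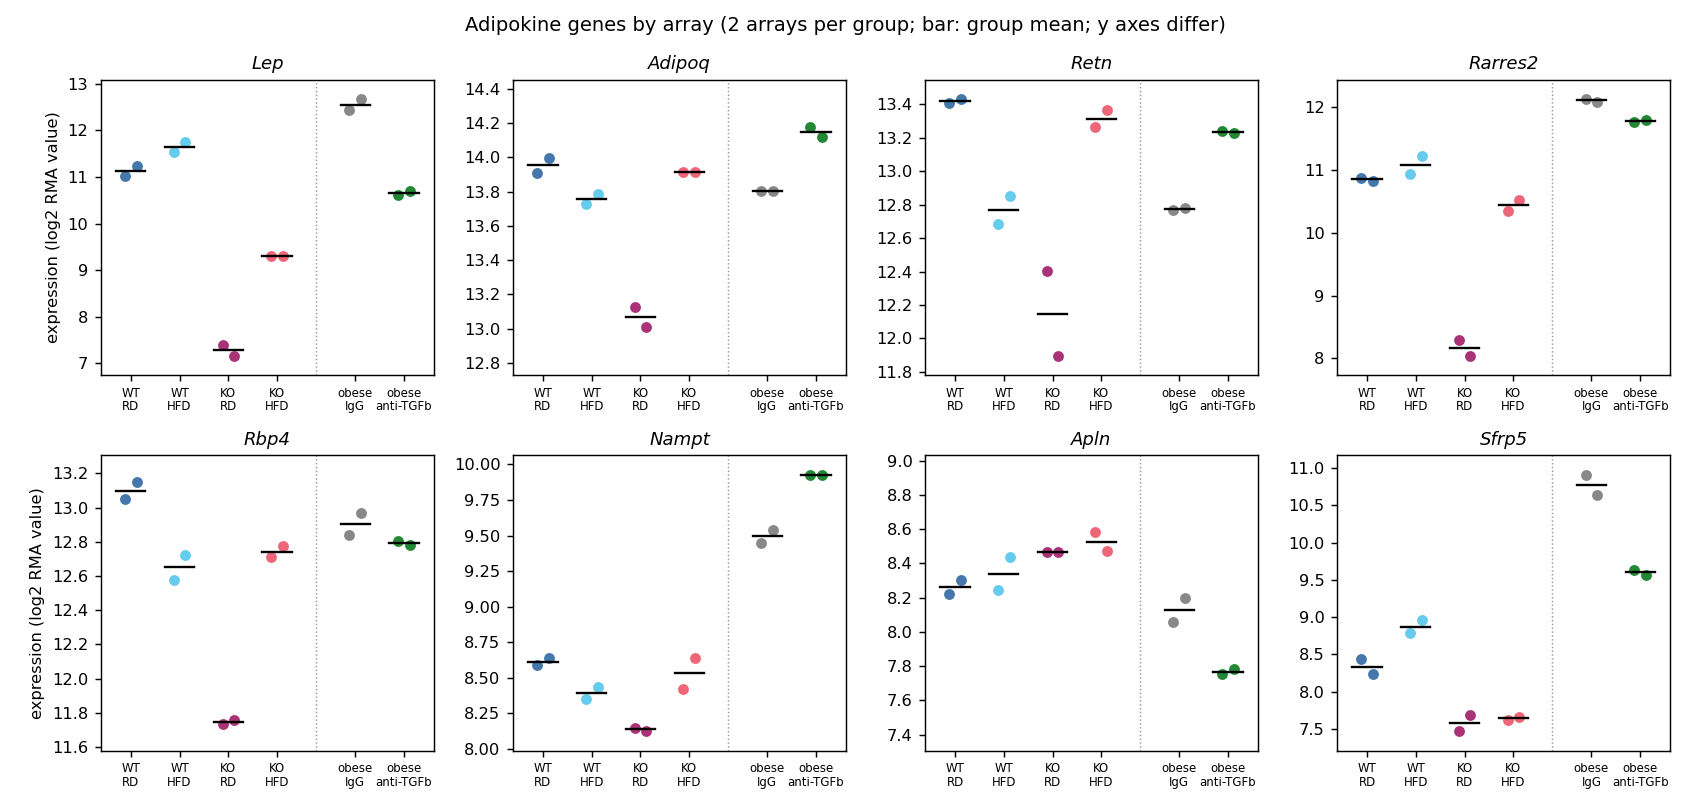
Expression (log2 RMA value, y axis) of each adipokine gene on each of the 12 arrays, by group (x axis), with the group mean as a bar; the dotted line separates the experiments, whose levels are not comparable. KO_RD is the lowest group for Lep, Adipoq, Retn, Rarres2, Rbp4, Nampt and Sfrp5, and Lep alone spans over 4 log2 units within the diet and genotype experiment.

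Adipoq was among the brightest genes in all groups, at percentile 99.82 to 99.99 over the arrays, and its range was narrow. Whether signals as bright as those of Adipoq, Retn and Rbp4 compress folds was not tested. Adipoq read 13.91 and 14.00 in WT_RD, 13.73 and 13.78 in WT_HFD, 13.12 and 13.01 in KO_RD, and 13.92 and 13.92 in KO_HFD. KO_RD was the one low group. WT_RD and KO_HFD overlapped, with means 0.04 apart. The genotype difference was -0.89 ± 0.10 on the regular diet (limma adjusted p = 6.09e-08) and 0.16 ± 0.10 on the fat diet (95% interval -0.05 to 0.37, limma adjusted p = 0.422). The diet difference was 0.85 ± 0.10 in the knockout (limma adjusted p = 2.2e-07) and -0.20 ± 0.10 in wild type (limma adjusted p = 0.282). With IgG Adipoq read 13.80 and 13.80 and with the antibody 14.18 and 14.12, a rise of 0.35 ± 0.10 (limma adjusted p = 0.0121). That call was lost when any 1 of the 4 arrays was left out, with adjusted p between 0.0603 and 0.118 and differences between 0.32 and 0.37. So Lep and Adipoq went the same way in the knockout on regular diet and opposite ways with the antibody.

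Retn resembled Adipoq. It read 13.41 and 13.43 in WT_RD, 12.68 and 12.85 in WT_HFD, 12.40 and 11.90 in KO_RD, and 13.26 and 13.37 in KO_HFD. The KO_RD arrays differed from each other by more than those of the other groups (SD 0.36 against 0.02 to 0.12). Retn was lower in the knockout on the regular diet by 1.27 and higher on the fat diet by 0.55 ± 0.12 (limma adjusted p = 0.00219). Fat feeding lowered it by 0.65 in wild type (limma adjusted p = 0.00029) and raised it by 1.17 in the knockout, an interaction of 1.82 ± 0.17 (limma adjusted p = 2.86e-09). Retn and Rbp4 were the adipokines that passed in opposite directions in the diet comparisons. With the antibody it rose from 12.77 and 12.78 to 13.24 and 13.23, by 0.46 ± 0.12 (limma adjusted p = 0.00523).

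The windows of Adipoq (chr16:23146286-23146535, plus strand) and Retn (chr8:3655520-3655769, plus strand), from the same build, are shown because these genes moved together. Each held 1 match, to the short Smad element, and the capitals mark it as above.
Adipoq: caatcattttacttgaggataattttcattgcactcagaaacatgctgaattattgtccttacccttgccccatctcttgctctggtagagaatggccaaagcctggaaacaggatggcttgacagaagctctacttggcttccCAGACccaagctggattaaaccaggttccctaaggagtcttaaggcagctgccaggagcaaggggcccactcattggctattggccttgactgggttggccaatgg
Retn: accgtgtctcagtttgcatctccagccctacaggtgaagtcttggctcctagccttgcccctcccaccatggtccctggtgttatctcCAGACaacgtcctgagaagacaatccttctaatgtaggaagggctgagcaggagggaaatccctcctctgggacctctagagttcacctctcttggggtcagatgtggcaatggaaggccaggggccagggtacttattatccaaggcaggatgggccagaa
The matches began at position -106 in Adipoq and at position -162 in Retn, counted from the gene start. Of the 9 genes, 8 had a promoter window in the RefSeq table. The Smad element was also matched in the windows of Cfd, Nampt, Apln and Sfrp5, and not in those of Lep or Rbp4. It was found in 42.2% of all promoter windows of this length, so the match is not particular to Adipoq and Retn.

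Rarres2 followed Lep in the knockout but recovered further on the fat diet. It read 10.88 and 10.83 in WT_RD, 10.94 and 11.22 in WT_HFD, 8.30 and 8.04 in KO_RD, and 10.36 and 10.52 in KO_HFD. KO_RD lay far below the other 3 groups. The genotype difference was -2.68 ± 0.11 on the regular diet (limma adjusted p = 3.69e-17) and -0.64 ± 0.11 on the fat diet (limma adjusted p = 0.000112). The diet difference was 2.27 ± 0.11 in the knockout (limma adjusted p = 2.5e-15) and 0.23 ± 0.11 in wild type (limma adjusted p = 0.244), and the interaction of 2.04 ± 0.16 was the largest of the 8. In obese mice it went from 12.13 and 12.09 to 11.77 and 11.80, a fall of 0.32 ± 0.11 (limma adjusted p = 0.0316). That call was lost when any 1 of the 4 arrays was left out (limma adjusted p from 0.0907 to 0.157). A second bright probe set gave -0.28 there and did not pass (limma adjusted p = 0.0835 over probe sets), and its genotype differences were -2.63 and -0.56. The dimmest probe set, at 5.95 to 6.69 on all arrays, showed no called difference.

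Rbp4 was high in every group and lowest in KO_RD. It read 13.05 and 13.15 in WT_RD, 12.58 and 12.72 in WT_HFD, 11.74 and 11.76 in KO_RD, and 12.71 and 12.77 in KO_HFD. WT_RD was highest, WT_HFD and KO_HFD overlapped, and KO_RD was lowest. It fell by 1.35 ± 0.10 in the knockout on the regular diet (limma adjusted p = 1.51e-11) and was 0.09 ± 0.10 apart on the fat diet (95% interval -0.11 to 0.30, limma adjusted p = 0.73). Fat feeding lowered it by 0.45 ± 0.10 in wild type (limma adjusted p = 0.0024; without WT_RD replicate b 0.0657, at -0.40) and raised it by 0.99 ± 0.10 in the knockout. The interaction was 1.44 ± 0.14 (limma adjusted p = 6.45e-09). With IgG it read 12.84 and 12.97 and with the antibody 12.80 and 12.78, a difference of -0.11 ± 0.10 that did not pass (limma adjusted p = 0.478).

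Nampt changed little. It read 8.59 and 8.64 in WT_RD, 8.35 and 8.43 in WT_HFD, 8.15 and 8.12 in KO_RD, and 8.42 and 8.64 in KO_HFD. Only KO_RD stood below all other arrays of the experiment. It fell by 0.48 ± 0.11 in the knockout on the regular diet (limma adjusted p = 0.0011) and rose by 0.39 ± 0.11 with fat feeding in the knockout (limma adjusted p = 0.0089; without KO_HFD replicate b 0.199, at 0.28). The interaction was 0.62 ± 0.15 (limma adjusted p = 0.00329). With the antibody it rose from 9.45 and 9.54 to 9.93 and 9.93, by 0.43 ± 0.11 (limma adjusted p = 0.0031). A second probe set gave -0.48, 0.41 and 0.27 for genotype on the regular diet, diet in the knockout and the antibody, the last not called (limma adjusted p = 0.0976 over probe sets). The dimmest, at 6.56 to 7.42, showed no called difference, and the mean of all 3 kept only the fall in the knockout on the regular diet.

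Apln was the least variable. It read 8.22 and 8.31 in WT_RD, 8.24 and 8.44 in WT_HFD, 8.46 and 8.47 in KO_RD, and 8.59 and 8.47 in KO_HFD. No comparison of this experiment passed, with differences from -0.01 to 0.20 and adjusted p from 0.216 to 0.974 (limma). Applying quantile normalization again put genotype on the regular diet at 0.37 (limma adjusted p = 0.0146). With IgG it read 8.06 and 8.20 and with the antibody 7.75 and 7.78, a fall of 0.36 ± 0.11 (limma adjusted p = 0.0192). That call was lost without DIO_IgG replicate b, DIO_aTGFb replicate a or DIO_aTGFb replicate b (adjusted p = 0.166, 0.104 and 0.0765) and after quantile normalization (-0.26, limma adjusted p = 0.118).

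Sfrp5 was low in the knockout on both diets. It read 8.43 and 8.24 in WT_RD, 8.78 and 8.96 in WT_HFD, 7.47 and 7.68 in KO_RD, and 7.62 and 7.66 in KO_HFD. The knockout groups overlapped, and both lay below both wild-type groups. The genotype difference was -0.76 ± 0.12 on the regular diet (limma adjusted p = 1.05e-05) and -1.23 ± 0.12 on the fat diet (limma adjusted p = 8.76e-09). Fat feeding raised it by 0.54 ± 0.12 in wild type (limma adjusted p = 0.00212; without WT_RD replicate b 0.0663, at 0.44) and by 0.07 ± 0.12 in the knockout, which did not pass. The interaction, -0.47 ± 0.17 (limma adjusted p = 0.0498), lay just past the threshold and was lost without WT_RD replicate b, WT_HFD replicate b, KO_RD replicate b, KO_HFD replicate a or KO_HFD replicate b (adjusted p = 0.218, 0.174, 0.202, 0.119 and 0.0948). The second probe set gave larger values: 0.92 for diet in wild type, -2.00 for genotype on the fat diet and -0.82 for the interaction (limma adjusted p = 0.000719 over probe sets). With IgG Sfrp5 read 10.91 and 10.63 and with the antibody 9.63 and 9.57, a fall of 1.17 ± 0.12 (limma adjusted p = 1.1e-08). The second probe set fell by 0.93 there.

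The 8 genes did not all follow the same course over the arrays, and they did not fall into clean groups. After each array was centred on the mean of its experiment, Lep correlated over the 12 arrays at r = 0.91 with Rarres2 and 0.86 with Sfrp5, but at 0.58 with Adipoq and 0.43 with Retn. Adipoq correlated at 0.94 with Retn, 0.89 with Rbp4 and 0.88 with Nampt, and at 0.12 with Sfrp5. Rarres2 went with both sides, at 0.92 with Rbp4, 0.84 with Adipoq and 0.71 with Retn, and Lep reached 0.80 with Rbp4. Apln correlated at 0.06 with Sfrp5 and negatively with each of the others, down to -0.41 with Adipoq and -0.60 with Nampt. These are descriptions over 6 groups of 2 arrays, and the low KO_RD arrays weigh in all of them.

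Among 885 genes whose group means varied with an SD of at least 0.5, those closest to Lep over the 12 arrays were Prelp, Lyz2 and Anxa1 (r = 0.99 each). Prelp is a matrix protein, Lyz2 a macrophage lysozyme and Anxa1 an annexin that damps inflammation. Closest to Sfrp5 were Ctss, Cd68 and Mest (r = 0.97, 0.97 and 0.96), of which the first pair are macrophage lysosomal genes. Closest to Adipoq were Upk3b, Lpin1 and Sik2 (0.99, 0.98 and 0.98) and to Retn Upk3b, Osbpl11 and Sh2b2 (0.98, 0.94 and 0.94). Upk3b is best known from mesothelium and bladder lining, and Lpin1 is an enzyme of triglyceride synthesis. Rarres2 was closest to Cd1d1, Apol6 and Sncg (0.996, 0.995 and 0.994), Rbp4 to Gstz1, Abcd2 and Aoc3 (0.99 each), and Nampt to Mogat1, Mgst3 and Gpat3 (0.93 each). The nearest genes to Apln reached only 0.79 (Rdh7, Cyp3a25 and Il13ra2).

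The receptors did not share one pattern. Lepr, the leptin receptor, read 7.80 to 8.08 on all 8 diet and genotype arrays and 5.84 to 6.10 on the antibody arrays. The latter values were near the array medians and may be background. Lepr passed in no comparison, with differences from -0.16 to 0.02. In the first experiment both WT_RD arrays lay above both KO_HFD arrays, and the other pairs of groups overlapped. Adipor2, an adiponectin receptor, read 11.54 and 11.55 in WT_RD, 11.63 and 11.74 in WT_HFD, 10.89 and 10.51 in KO_RD, and 11.70 and 11.83 in KO_HFD. It was low in KO_RD only, as Adipoq and the summed level of white adipocyte genes were. The genotype difference on the regular diet was -0.85 ± 0.11 and the diet difference in the knockout 1.07 ± 0.11. That with the antibody was 0.32 ± 0.11, and all of these were called. Adipor1 fell by 0.34 ± 0.10 in the knockout on the regular diet (limma adjusted p = 0.0149) and passed in no other comparison.

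Cmklr1, the chemerin receptor, had the course of its ligand gene Rarres2 in the first experiment. It read 9.51 and 9.69 in WT_RD, 9.51 and 9.75 in WT_HFD, 7.37 and 7.53 in KO_RD, and 9.00 and 9.03 in KO_HFD. Both wild-type groups overlapped, and KO_RD was far below. The genotype difference was -2.16 ± 0.11 on the regular diet and -0.62 ± 0.11 on the fat diet, and the interaction 1.54 ± 0.15. The low level in KO_RD was not particular to this pair. White adipocyte genes were lower in 13 of 14 for genotype on the regular diet and higher in 11 of 14 for diet in the knockout. Cidec differed there by -1.84 and 1.73, and by -0.02 between genotypes on the fat diet. With the antibody Cmklr1 rose by 0.35 ± 0.11 (limma adjusted p = 0.0181), while Rarres2 fell. Aplnr, the apelin receptor of vessels, went with the antibody from 9.48 and 9.49 to 7.66 and 7.56, a difference of -1.87 ± 0.13 (limma adjusted p = 5.73e-12). In the first experiment it read 6.18 to 6.86, near the array medians, so differences there may be compressed. It rose by 0.44 ± 0.13 with the fat diet in wild type and passed in no genotype comparison. Stra6, the Rbp4 receptor, read 4.42 to 6.25 and passed nowhere. It lay below the array median on every array, so its signal may be background.

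**Figure D4:**
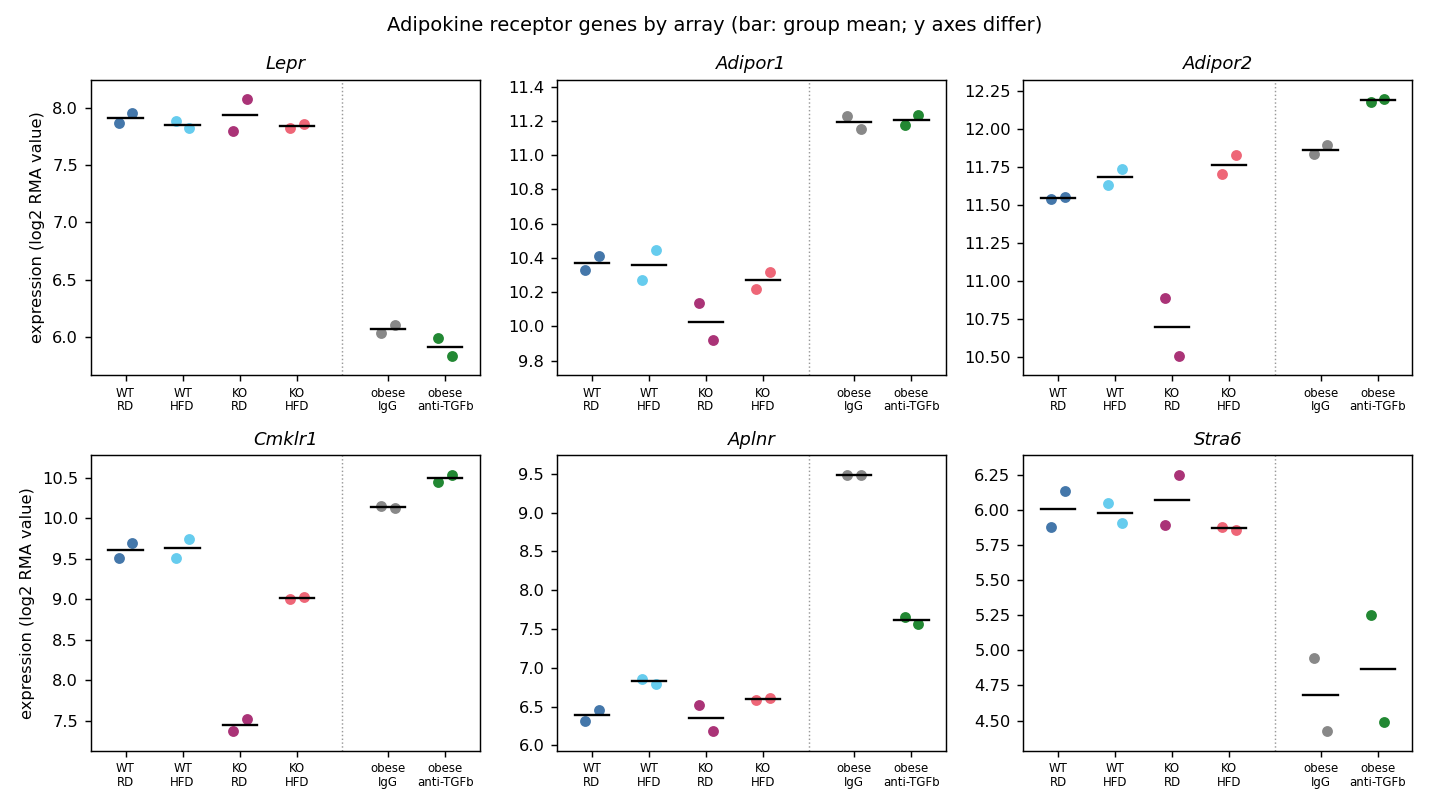
Expression (log2 RMA value, y axis) of 6 adipokine receptor genes on each array, by group (x axis), with the group mean as a bar and a dotted line between the experiments. Adipor2 and Cmklr1 dip in KO_RD, Aplnr is low with the antibody against IgG, and Lepr stays between 7.80 and 8.08 on the 8 diet and genotype arrays.

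Of 18 receptors and partners, all measured, 6 were lower and 0 higher in the knockout on the regular diet, or 33.3% called against 24.0% of all genes, and 3 lower and 1 higher on the fat diet, or 22.2% against 10.8%. With the fat diet 1 rose and 2 fell in wild type (16.7% against 10.8%). In the knockout 3 rose, a share of 16.7% that is near the 17.3% of all genes. With the antibody 3 rose and 5 fell, or 44.4% against 24.3% (median -0.19 against -0.00 over all genes). The fall of Ttr, the plasma partner of Rbp4, was the largest there, at -2.45 ± 0.12, and all 6 measured hepatocyte genes, Ttr among them, were lower in that comparison. Ccrl2, which binds chemerin without signalling, fell by 1.12.

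Genes that carry or dampen the leptin signal were lower in the knockout on the regular diet in 6 of 12 with 0 higher, a share of 50.0% against 24.0% of all genes (median -0.27 against 0.04). Pik3r1, a regulatory subunit of PI3 kinase, fell by 1.00, Ptpn1, a phosphatase that limits the leptin receptor, by 0.76, and Stat3, its main transcription factor, by 0.72. Wild-type mice on the fat diet had 4 lower and 0 higher (33.3% against 10.8%), Pik3r1 by 1.10 and Ptpn1 by 0.62. With the antibody 6 of 12 were higher and 0 lower, or 50.0% against 24.3% (median 0.36 against -0.00): Socs3, an inhibitor that leptin induces, rose by 1.21, Irs1 by 0.88, Irs2 by 0.56 and Stat3 by 0.52, while Lep itself fell. On the fat diet 2 were higher in the knockout (16.7% against 10.8%), Irs1 by 0.46 and Stat5a by 0.43. Fat feeding in the knockout raised 2 and lowered 0, a share of 16.7% near the 17.3% of all genes. In the interaction 4 differed (33.3% against 18.8%). For genotype on the regular diet and diet in wild type, all 7 smooth muscle genes were lower too (medians -3.10 and -3.18). Epididymis genes were higher in 10 of 11 and 7 of 11 in these comparisons. The part of other tissues in the leptin signal genes was not tested.

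Genes for adiponectin assembly and signalling had 4 lower and 1 higher of 11 in the knockout on the regular diet, or 45.5% called against 24.0% of all genes. Gstk1, which helps adiponectin form multimers, fell by 0.55, and Appl1, an adaptor of the adiponectin receptors, by 0.62. Erp44, which retains adiponectin in the endoplasmic reticulum, rose by 0.54. With the antibody 3 rose and 0 fell, a share of 27.3% near the 24.3% of all genes: Prkaa2, a catalytic subunit of AMP kinase, by 0.66, Gstk1 by 0.44 and Stk11, its upstream kinase, by 0.33. In the fat-fed knockout against fat-fed wild type Prkaa2 and Gstk1 were higher, by 0.37 and 0.36, and 0 were lower (18.2% against 10.8%). Prkaa2 is also strong in skeletal muscle, whose markers were higher in both of these. Diet in wild type gave 0 higher and 2 lower (18.2% against 10.8%), diet in the knockout 2 higher and 1 lower (27.3% against 17.3%).

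Relatives of the members were measured too. Retnla, a resistin relative made by macrophages, fell by 1.82 ± 0.11 in the knockout on the regular diet and by 0.65 on the fat diet, where Retn was higher. Among 4 other Sfrp genes, Sfrp2 was lower in the knockout by 0.71 on the regular diet and higher by 0.40 on the fat diet, unlike Sfrp5. With the antibody Sfrp4 fell by 1.01 and Sfrp2 by 0.66, and Frzb rose by 0.63.

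Of 22 other measured factors secreted by fat, 8 were lower and 1 higher in the knockout on the regular diet, or 40.9% called against 24.0% of all genes (median -0.14 against 0.04). Angptl4, an inhibitor of lipoprotein lipase, differed by -1.48, Fstl1 by -1.41 and Inhbb by -1.13. The one that rose was Lcn2, by 5.98 to a mean of 13.1, and it was also higher by 1.92 in WT_HFD than in WT_RD; epididymis genes were high in these same groups. On the fat diet 4 were higher and 4 lower (36.4% against 10.8%), with Vegfa up by 0.64 and Agt by 0.59. Diet gave 1 higher and 4 lower in wild type (22.7% against 10.8%), and 7 higher and 1 lower in the knockout (36.4% against 17.3%). In the knockout Angptl4 rose by 0.93 and Nrg4, a factor of brown fat, by 0.65. The brown adipocyte list did not rise there, with 0 higher and 1 lower of 11 (median -0.15). Of the 22 secreted factors, 8 were higher and 1 lower in the interaction (40.9% against 18.8%). With the antibody 10 were lower and 3 higher, or 59.1% against 24.3% (median -0.26 against -0.00). Saa3, an acute phase protein of inflamed fat, fell by 3.19, Ccn5, a Wnt-induced adipokine, by 2.13 and Metrnl by 1.11, and Nrg4 rose by 0.97. Macrophage genes summed to 15.24 on both IgG arrays and to 13.89 and 13.91 with the antibody.

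Around Rbp4, 16 genes of retinoid handling were measured. Aldh1a1, which makes retinoic acid, was higher by 1.94 in the knockout on the regular diet and by 2.36 in fat-fed wild type. It differed by -1.26 between genotypes on the fat diet. KO_RD and WT_HFD were also the groups in which epididymis genes summed highest. Rbp7, a retinol carrier of fat-tissue vessels, fell by 1.11 and Dhrs3, a retinaldehyde reductase, by 1.21 in the knockout on the regular diet; on the fat diet both were lower by 0.94 and 0.53. In all 1 rose and 2 fell on the regular diet, a share of 18.8% that is below the 24.0% of all genes. On the fat diet 0 were higher and 4 lower (25.0% against 10.8%). With diet 4 rose and 0 fell in wild type (25.0% against 10.8%), and 2 rose and 1 fell in the knockout (18.8% against 17.3%). With the antibody 3 rose and 2 fell (31.2% against 24.3%).

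Around Nampt, 11 genes of NAD synthesis and use were measured. Nnmt, which uses up nicotinamide and is abundant in fat, was lower by 2.11 ± 0.10 in the knockout on the regular diet and by 1.42 in fat-fed wild type, and Sirt3, a mitochondrial NAD-dependent deacylase, was higher in the knockout by 0.42 and 0.76 on the 2 diets. With the antibody 4 rose and 2 fell, or 54.5% called against 24.3% of all genes (median 0.37 against -0.00): Sirt3 by 1.03, Naprt by 0.86 and Nmnat3 by 0.79 among the first, Nnmt by 0.55 among the second. Elsewhere 1 or 2 of the 11 were called in each comparison, at most 18.2%, where 10.8% to 24.0% of all genes were.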

How the data were processed

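Per the submitters' processing notes, the authors made the deposited log2 values with RMA in Partek, without versions; the labels' protocols give 6 ug of total RNA per array. The diet and genotype arrays (8) and the antibody arrays (4) have different medians and may have been scaled apart, so every comparison stayed within one of them. Probe sets were named from the platform annotation, and of 45101, 34958 named 1 gene. Each gene took its brightest probe set. Promoter windows came from RefSeq tables for GRCm38.p6.

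Group means of all 12 arrays were fitted in limma 3.58.1 (R 4.3.3) with an intensity trend, and p-values were two-sided and adjusted over 18194 genes by Benjamini-Hochberg at a threshold of 0.05. The fit was tested on simulated data. The number of arrays limits the precision. The members, and the pathway and marker lists, were chosen with earlier results of these data known. Text genes were the members, fixed receptors and markers, up to 4 called genes per list and comparison with the smallest p, and the 3 genes most like each member. The alternatives tried are named in the closing section.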

Additional observations from a re-analysis of the deposited data

Results flagged for a closer look

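For 7 of the 8 measured adipokines the log2 response to the fat diet differed between genotypes by limma's interaction test. That test called 18.8% of all genes and 13 of the 14 measured white adipocyte genes, so the result is not particular to adipokines. Values are given as knockout minus wild type with the SE. The difference was 2.04 ± 0.16 for Rarres2 (2.27 in the knockout against 0.23 in wild type) and 1.82 ± 0.17 for Retn (1.17 against -0.65). Lep followed at 1.51 ± 0.16 (2.02 against 0.51), Rbp4 at 1.44 ± 0.14 (0.99 against -0.45) and Adipoq at 1.05 ± 0.14 (0.85 against -0.20). Nampt had 0.62 ± 0.15 (0.39 against -0.22). Sfrp5 alone had a negative value, -0.47 ± 0.17 (0.07 against 0.54), at an adjusted p of 0.0498. The KO_RD arrays, where epididymis genes summed to 15.86 and 15.93, enter each of these values.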

How the results depend on the processing

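Of 800 differences of single adipokines recomputed under the alternatives, 745 kept their side of the threshold, 53 lost the call and 2 gained it; no called difference changed sign. Requiring at least 1.5-fold (treat) left 0 adipokines and 335 genes called for diet in wild type, 500 genes for knockout diet, 4 and 941 for genotype on the regular diet, 2 and 274 on the fat diet, 941 genes for the interaction, and 2 and 663 for the antibody. Leaving out 1 array at a time gave 2 to 4 adipokines and 1296 to 1679 genes for diet in wild type, 2035 to 2710 genes for diet in the knockout and 4 to 5 adipokines for the antibody; the unaltered gene counts were 1966 and 3150. The fewest genes came without WT_RD replicate a and without KO_HFD replicate b.

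The Sfrp5 interaction was lost without the intensity trend (limma adjusted p = 0.0944), with robust moderation (0.0504), with arrays centred on their medians (0.107), in a fit of that experiment alone (0.0679) and over probe sets (0.0672). The Rarres2 antibody call was lost with the mean of its probe sets (0.381), without the trend (0.0788) and with centring (0.0547). Quantile normalization made Rarres2 pass for diet in wild type (0.34, limma adjusted p = 0.00747). Where the cause is not plain from the setting it was not tested. The letters a and b did not pair the arrays: differences of a minus b correlated between groups at -0.16 to 0.17, and at -0.07 in the antibody experiment. With the letter as a replicate block the Sfrp5 interaction (limma adjusted p = 0.0601) and the Rarres2 antibody difference (0.0568) lost their calls, and 6 adipokines were called in each of these comparisons. Leaving out both KO_RD or both WT_RD arrays, chosen after seeing the data, also removed every comparison that used them. The comparisons that could still be made hold none of the arrays left out. Their counts of called adipokines did not change, which says nothing about the arrays left out.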

Other observations

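Of 11 measured genes of the alternative complement pathway, in which Cfd acts, 5 fell and 0 rose with the antibody, or 45.5% called against 24.3% of all genes (median -0.47 against -0.00). C3ar1 and C5ar1, the receptors for the fragments C3a and C5a on myeloid cells, differed by -1.53 ± 0.12 and -1.12 ± 0.14, and Cfi, Cd59a and Cd55, which restrain complement, by -0.86, -0.77 and -0.75. Macrophage genes were lower in 11 of 12 in that comparison. In the knockout on the regular diet 3 were lower and 1 higher, or 36.4% against 24.0%, with Cfb, the substrate of Cfd, at -0.99 ± 0.19 and Cfi at 0.54.

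Relatives of adiponectin in the C1q and TNF related family (8 measured) had 4 lower and 1 higher with the antibody (62.5% called against 24.3% of all genes), where Adipoq rose: C1qtnf6 differed by -0.74, C1qtnf9 by -0.56, C1qtnf1 by -0.51 and C1qtnf3 by -0.48, and C1qtnf4 rose by 1.06. C1qtnf4 was also higher by 1.00 in the knockout on the regular diet and by 0.97 in fat-fed wild type. Epididymis genes were high in these same groups. C1qtnf9 differed by -0.39 in the knockout on the regular diet and rose by 0.54 with the fat diet in the knockout.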
